A study of Mus musculus with 8 samples.

Results

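The enzymes that write and erase DNA methylation and the proteins that read it were examined in the hippocampus of young and aged mice. The set was given as 8 genes: the methyltransferases Dnmt1, Dnmt3a and Dnmt3b, the dioxygenases Tet1, Tet2 and Tet3, and the methyl-CpG binding proteins Mbd1 and Mbd2. Probes were matched to these genes through the transcript accession of each probe, and 14 of the 39429 non-control probes belonged to 7 of the 8 genes. No probe was matched to Tet1, so Tet1 was not analysed here. The probes were distributed as 1 for Dnmt1, 1 for Dnmt3a, 3 for Dnmt3b, 2 for Tet2, 3 for Tet3, 2 for Mbd1 and 2 for Mbd2.

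RNA came from whole hippocampi dissected by hand from wild type C57BL/6J mice that received no treatment and aged in their home cages. The 3M group held 4 samples of 3-month-old mice and the 29M group 4 samples of 29-month-old mice. The methods of the study state that the old animals were bought late in life and housed further, so that 29M stands for a range of ages around 29 months. Sex was not given in the sources used here, and nothing in the labels says whether a sample was 1 animal or a pool, so the tests measure the spread between these samples. Each sample was labelled with the dye Cy3 and hybridised to its own array, on 3 slides that each carried both age groups. Slide 1 held 3M replicate 1 and 29M replicates 3 and 4, and slide 2 held replicate 2 of both groups. On slide 3 were 3M replicates 3 and 4 and 29M replicate 1. The age groups were thus not balanced over the slides, and each change within a slide rests on few arrays. The question asked of these arrays was which transcripts differ between young and very old hippocampus.

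Dnmt1 copies the methylation of the parental strand onto newly made DNA after replication, while Dnmt3a and Dnmt3b place methyl groups on cytosines that had none. Tet enzymes oxidise methylcytosine to hydroxymethylcytosine and further products, which base excision repair can replace with plain cytosine, and hydroxymethylcytosine is abundant in neurons. Mbd1 and Mbd2 bind methylated CpG sites and bring repressor complexes to them. Most hippocampal neurons no longer divide, and the dentate gyrus is one of the few places in the adult brain where new neurons are born.

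CpG dinucleotides, the sites these enzymes act on, also lie in the promoters of the genes that encode them. RefSeq promoter windows (GRCm38.p6, the 250 bases before each annotated start) were found for 6 of the 8 genes, as 10 windows. The letters CG, which read the same on both strands, were counted in each window and in all 32851 windows of the annotation, of which 92.1% hold at least 1 CG and the median window holds 6. The member windows lay above that median in 9 of 10 cases. A single Tet2 window held 51 CG, a number that 0.067% of all windows reach. The 3 Dnmt3a windows held 38, 40 and 15, the Dnmt3b window 21, the Tet3 window 17 and the Tet1 window 15. The 3 Dnmt1 windows held 2, 7 and 26 CG, and 81.2% of all windows hold at least 2. The Dnmt1 window with the fewest CG (chr9:20959889-20960138, minus strand), the first Dnmt3a window (chr12:3806730-3806979, plus strand) and the Tet2 window (chr3:133544391-133544640, minus strand) are shown to let the density be seen, 5′ to 3′ on the strand of the gene with each CG in capitals. The arrays measured RNA and not methylation, so these windows describe the genes and carry no measurement of their promoters.
Dnmt1: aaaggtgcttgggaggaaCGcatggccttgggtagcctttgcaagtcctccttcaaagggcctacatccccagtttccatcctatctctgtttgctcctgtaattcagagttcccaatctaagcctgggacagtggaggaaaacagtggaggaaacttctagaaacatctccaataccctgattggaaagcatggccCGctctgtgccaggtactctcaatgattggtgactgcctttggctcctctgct
Dnmt3a: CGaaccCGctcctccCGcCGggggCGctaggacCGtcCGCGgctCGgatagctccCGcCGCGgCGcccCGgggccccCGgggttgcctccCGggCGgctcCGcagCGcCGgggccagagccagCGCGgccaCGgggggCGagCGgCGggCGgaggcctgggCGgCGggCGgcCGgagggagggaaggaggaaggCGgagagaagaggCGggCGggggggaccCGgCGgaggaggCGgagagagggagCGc
Tet2: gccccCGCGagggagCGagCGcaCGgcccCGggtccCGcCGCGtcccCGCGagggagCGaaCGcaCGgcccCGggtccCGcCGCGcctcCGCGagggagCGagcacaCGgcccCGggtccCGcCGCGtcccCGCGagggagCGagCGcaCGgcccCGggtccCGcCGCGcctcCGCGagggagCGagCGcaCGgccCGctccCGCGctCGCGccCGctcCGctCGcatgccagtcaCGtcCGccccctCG

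Between 76.2% and 85.0% of the spots of an array were marked well above background, no spot was saturated, and the arrays correlated at 0.992 to 0.998 over all probes. The lowest share belonged to 3M replicate 1, the only array that the scanner software marked for evaluation, and values without it are given where they differ. The next lowest shares were those of 29M replicates 4 and 3, also on slide 1, at 78.9% and 80.6%. All 12 neuronal markers examined, among them the glutamate transporter Slc17a7 and the dentate granule cell factor Prox1, were well above background on all 8 arrays. Neither direction was called for any of these 12, with a median log2 change of 0.01. In a whole tissue, fewer cells of a type and less RNA per cell cannot be told apart.

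None of the DNA methylation genes measured differed between the age groups past the threshold. With limma, 0 of 14 probes were called at a Benjamini-Hochberg adjusted p under 0.1 and a log2 change of at least 0.5 in size, the rule of the study's methods, beside 1.96% of the 39408 probes tested, of which 1.21% were called higher and 0.751% lower in 29M. No member probe had an unadjusted p under 0.05 either, which 17% of all probes had, and none changed by 0.5 or more, which 4.14% did. Fitted log2 changes (29M minus 3M) ran from -0.30 for a Tet3 probe to 0.23 for a Mbd2 probe, with 6 probes above and 8 below 0. The median was -0.04 over the 14 probes and 0.00 over all probes tested, and adjusted p ran from 0.320 to 0.967. The 95% interval of the change lay wholly within 0.5 of 0 for 11 of the 14 probes and for 72.1% of all probes. For 3 probes, 1 each of Dnmt1, Tet2 and Tet3, it reached past 0.5, so a change of that size was not excluded by these 8 arrays. Among the 11, the Tet3 probe A_51_P199339 lay near the floor of the arrays, where a change is understated. Its narrow interval is therefore no limit on the change of its RNA. The spread of the 14 probes within the age groups was close to that of the array, with a median SD of 0.140 beside 0.151 over all probes.

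**Figure D1:**
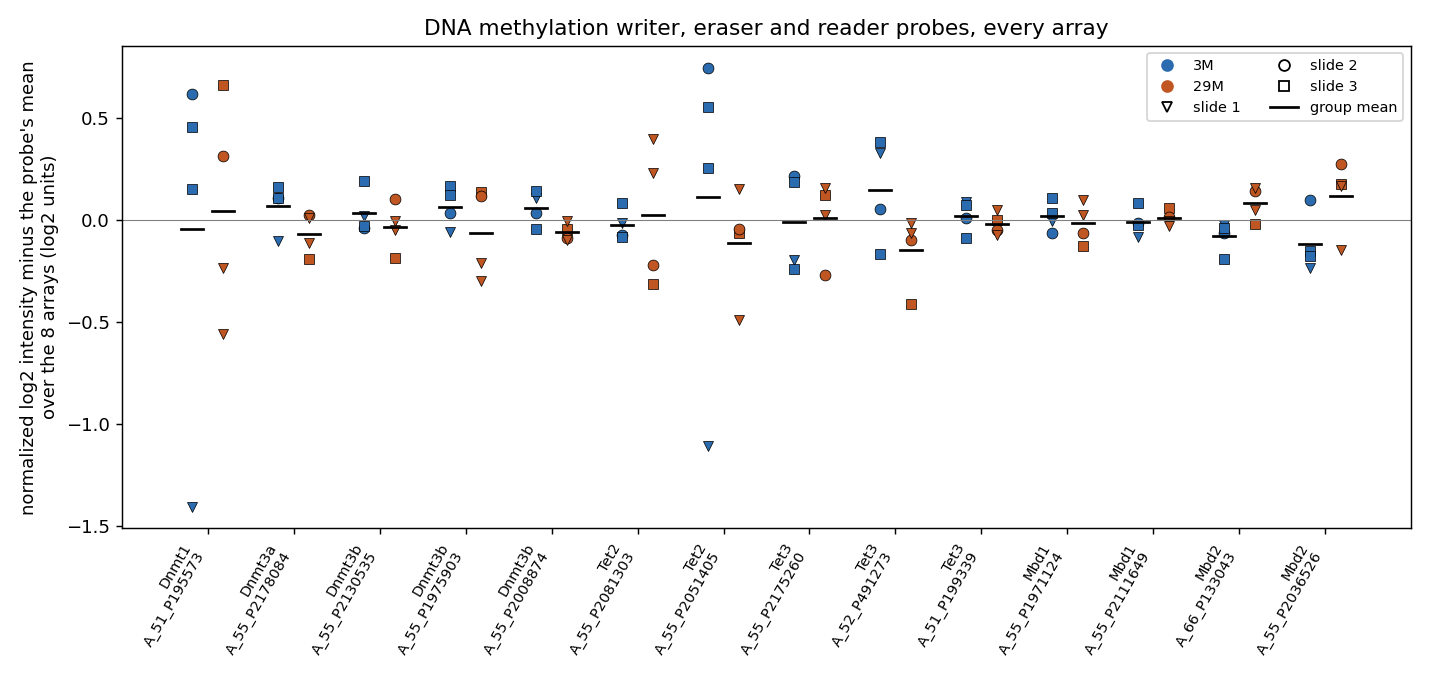
Normalized log2 intensity of each of the 14 probes on every array, as the difference from the probe's mean over the 8 arrays, with 3M in blue, 29M in orange, a marker shape for each slide and a bar at each group mean. The 2 age groups overlap for 13 of the 14 probes, and 3M replicate 1 lies far below the rest for Dnmt1 and for the Tet2 probe A_55_P2051405.

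Among the writers, Dnmt1 varied most from array to array. Its probe (A_51_P195573, NM_010066) read 9.84, 11.86, 11.70 and 11.40 on the normalized log2 scale in 3M replicates 1 to 4, and 11.91, 11.56, 10.68 and 11.01 in 29M replicates 1 to 4. The lowest and the highest value stood in different age groups, and each group spanned more than 1 log2 unit. The 3M mean of 11.20 ± 0.93 (SD, n = 4) was below the 29M mean of 11.29 ± 0.55 (SD, n = 4) by less than either SD. The fitted change was 0.09 (SE 0.43, 95% interval -0.88 to 1.07, limma adjusted p = 0.940). Its spread within groups was at the 99.3rd percentile of all probes.

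The low Dnmt1 values lay on 1 slide. The 3 arrays of slide 1, namely 3M replicate 1 and 29M replicates 3 and 4, gave its 3 lowest readings. Within slides, 29M minus 3M was 1.01 on slide 1, -0.30 on slide 2 and 0.36 on slide 3. With slide as a block the change was 0.42 (limma adjusted p = 0.372), and without 3M replicate 1 it was -0.36 (adjusted p = 0.487). A limma F test for slide was added after the Dnmt1 values had been seen. It gave this probe an unadjusted p of 0.00185 and an adjusted p of 0.347 over all probes. The Dnmt3b probe A_55_P1975903 also had its 3 lowest readings on slide 1, at 8.41, 8.17 and 8.26. The F test gave that probe an unadjusted p of 0.0301 and an adjusted p of 0.464. No probe of the array had an adjusted p under 0.1 in that test. The part of the slides in the Dnmt1 values was not tested further.

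**Figure D2:**
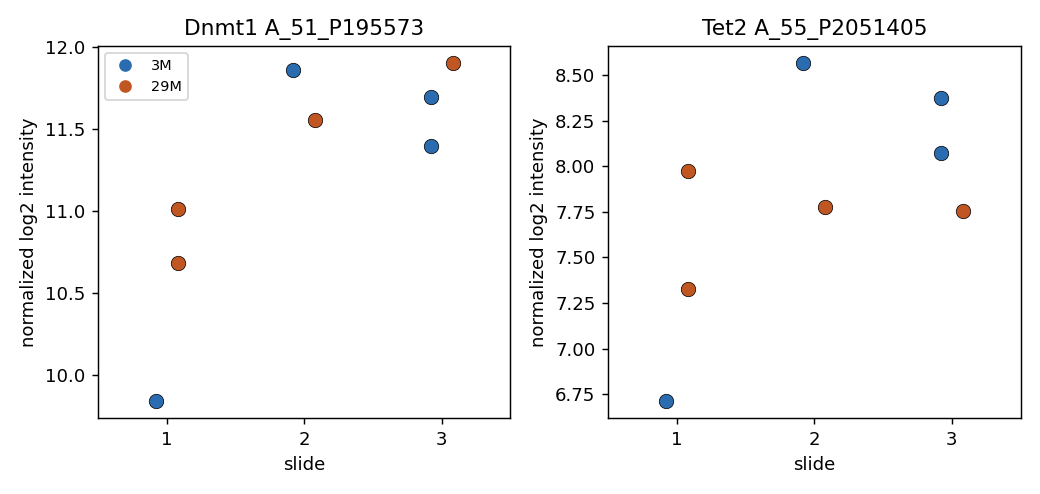
Normalized log2 intensity of the Dnmt1 probe and of the Tet2 probe A_55_P2051405 on the 8 arrays, by slide, with 3M in blue and 29M in orange. For Dnmt1 the 3 arrays of slide 1 lie lowest, from 9.84 to 11.01, whichever age group they belong to.

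Dnmt3a, the main enzyme of new methylation in neurons after birth, read 13.35, 13.56, 13.56 and 13.61 in the 3M arrays on its probe A_55_P2178084 (NM_007872). The 29M arrays read 13.26, 13.47, 13.34 and 13.46. Only 3M replicate 1 fell among the 29M values, and the other 3M arrays lay above all of them. Means were 13.52 ± 0.12 (SD, n = 4) and 13.38 ± 0.10 (SD, n = 4), a change of -0.14 (SE 0.09, 95% interval -0.34 to 0.06, adjusted p = 0.476). Without 3M replicate 1 the change was -0.19 (adjusted p = 0.239). The direction was not the same on each slide, with 0.05 on slide 1, -0.09 on slide 2 and -0.33 on slide 3.

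Dnmt3b, the other enzyme of new methylation and best known from the early embryo, had 3 probes for 1 transcript (NM_001003961), and all 3 had negative changes that missed the threshold. They were -0.07 (95% interval -0.27 to 0.13), -0.13 (-0.39 to 0.13) and -0.12 (-0.28 to 0.04), with adjusted p from 0.446 to 0.736. On A_55_P2008874, the probe with the narrowest interval, the 3M arrays read 8.48, 8.40, 8.32 and 8.51 and the 29M arrays 8.32, 8.28, 8.27 and 8.36. Its groups overlapped by their edges, and its sign was negative on all 3 slides (-0.16, -0.12 and -0.09). The other Dnmt3b probes were positive on slide 2, at 0.14 for A_55_P2130535 and 0.08 for A_55_P1975903, and negative on the other slides. All 3 probes were well above background on all 8 arrays. The probes share their transcript and their arrays, so their common sign is not 3 separate measurements.

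The erasers gave no common direction, and probes of 1 gene differed in sign. For Tet2, whose product lacks the CXXC DNA-binding domain that Tet1 and Tet3 carry, the probe A_55_P2081303 (NM_001040400) read 11.02, 10.96, 11.12 and 10.95 in 3M. In 29M it read 10.72, 10.81, 11.26 and 11.43. The 4 young arrays fell inside the range of the old ones, with a change of 0.05 (95% interval -0.30 to 0.39, adjusted p = 0.914).

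A second Tet2 probe, A_55_P2051405, read 6.71, 8.57, 8.37 and 8.07 in 3M and 7.75, 7.78, 7.33 and 7.97 in 29M. In 3M, replicates 2, 3 and 4 were above all 29M arrays, while replicate 1 was below all of them. The means of 7.93 ± 0.84 (SD, n = 4) and 7.71 ± 0.27 (SD, n = 4) gave a change of -0.22 (SE 0.36, 95% interval -1.03 to 0.58, adjusted p = 0.799). Without 3M replicate 1 the change was -0.63 (limma adjusted p = 0.0765), the only alternative under which any member probe was called. Within slides it was 0.94, -0.79 and -0.47, the first of these resting on that array. With slide as a block it was -0.05 (adjusted p = 0.955). The part of 3M replicate 1 in this value was not tested beyond leaving it out, and the other Tet2 probe changed by 0.05 without that array (adjusted p = 0.906).

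Tet3, the family member known for oxidising the paternal genome after fertilisation and present in neurons, held the lowest adjusted p of the set. Its probe A_52_P491273 (NM_183138) read 8.75, 8.48, 8.26 and 8.81 in 3M and 8.01, 8.32, 8.36 and 8.41 in 29M. Only 3M replicate 3 lay within the 29M range, and the other 3 young arrays were above it. The means of 8.57 ± 0.26 (SD, n = 4) and 8.28 ± 0.18 (SD, n = 4) gave a change of -0.30 (SE 0.14, 95% interval -0.61 to 0.01, adjusted p = 0.320). The sign was negative on all 3 slides, at -0.37, -0.16 and -0.52, and the change with slide as a block was -0.37 (adjusted p = 0.238). Without 3M replicate 1 the change was -0.24 (limma adjusted p = 0.398). Over the 18 alternatives it ran from -0.43 to -0.21, with limma adjusted p from 0.173 to 0.557.

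A further Tet3 probe, A_55_P2175260, carried no such difference. It read 10.30, 10.71, 10.26 and 10.69 in 3M and 10.62, 10.23, 10.66 and 10.52 in 29M, with a change of 0.02 (95% interval -0.30 to 0.33, adjusted p = 0.967). The groups overlapped almost wholly. The dimmest probe of the set, A_51_P199339 of Tet3, was well above background on only 2 of 4 arrays in each group, and its change was -0.04 (adjusted p = 0.837). Its readings of 5.90 to 6.08 in 3M and 5.92 to 6.04 in 29M are near the floor of the arrays, where a change is understated.

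The pattern of the Tet3 probe A_52_P491273 over the 8 arrays was closest to those of Plac8 (Pearson r = 0.978), Pla2g12a (r = 0.962) and Cdhr1 (r = 0.956) among 16049 genes with a probe well above background throughout. These correlations are the highest of many over 8 arrays that share slides and age groups, and are given as a description. The changes of these 3 genes with age were -0.22, -0.07 and -0.09, none of them called.

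The readers split by gene. Mbd2, which binds methylated CpG and recruits the NuRD repressor complex, had positive changes on both probes (NM_010773), and neither passed the threshold. On A_66_P133043 the 3M arrays read 13.51, 13.47, 13.34 and 13.50 and the 29M arrays 13.51, 13.68, 13.58 and 13.69. This was the only 1 of the 14 probes whose groups did not overlap, beside 11.1% of all probes (5.52% higher and 5.55% lower in 29M), and the gap between the highest 3M and the lowest 29M array is below the 2 decimals printed. The change was 0.16 (SE 0.08, 95% interval -0.01 to 0.34, adjusted p = 0.328), a fold of 1.12.

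The other Mbd2 probe, A_55_P2036526, read 11.09, 11.43, 11.18 and 11.15 in 3M and 11.51, 11.60, 11.18 and 11.49 in 29M. Replicates 1, 2 and 4 of 29M lay above all 3M arrays, and 29M replicate 3 lay among them. Its change of 0.23 (SE 0.11, 95% interval -0.02 to 0.49, adjusted p = 0.333) was a fold of 1.18. Both Mbd2 probes were positive on all 3 slides, at 0.13, 0.21 and 0.09 for the first and 0.24, 0.17 and 0.34 for the second. The same sign on all 3 slides was found for 5 of the 14 member probes. Among them was the Mbd1 probe A_55_P2111649, which changed by only 0.02. The share over all probes was not counted. The first probe stayed between 0.11 and 0.20 and the second between 0.18 and 0.32 under the 18 alternatives tried, with adjusted p from 0.156 to 0.548 over both.

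Mbd1, which carries CXXC domains beside its methyl-CpG binding domain, stayed nearest to 0 over its probes. Its probe A_55_P1971124 (NM_013594) read 12.21, 12.15, 12.32 and 12.25 in 3M and 12.09, 12.15, 12.24 and 12.31 in 29M. The change was -0.03 (adjusted p = 0.868), and the second probe, A_55_P2111649, changed by 0.02 (adjusted p = 0.919) with readings of 8.41 to 8.58 in 3M and 8.46 to 8.55 in 29M. Both pairs of groups overlapped. The 95% intervals of both probes lay within 0.5 of 0, as did those of both Mbd2 probes.

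**Figure D3:**
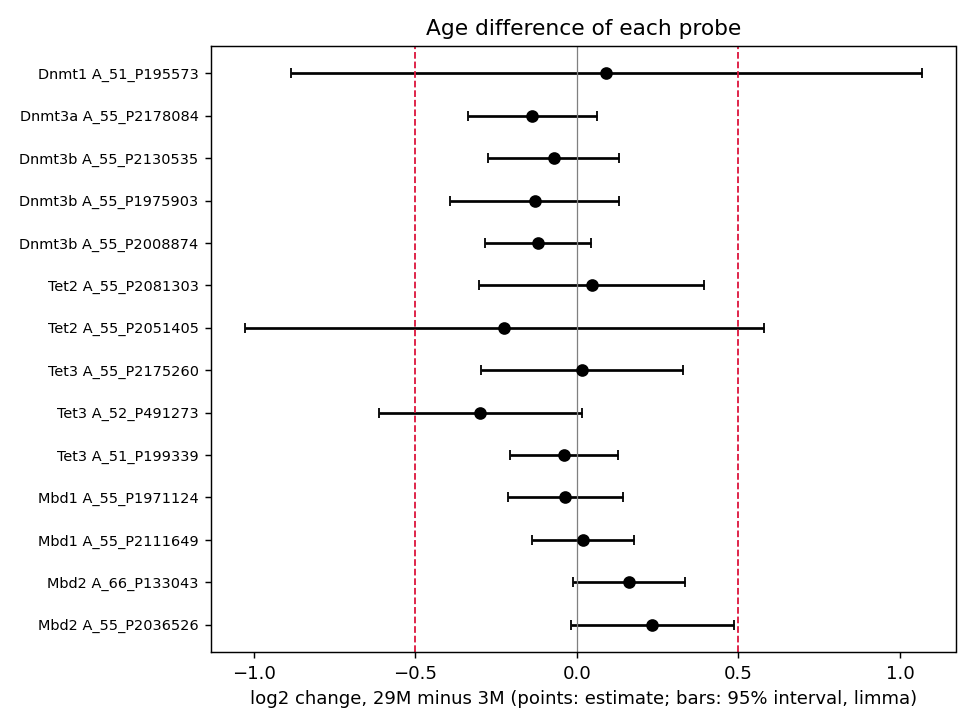
Fitted log2 change (29M minus 3M) of each of the 14 probes with its 95% interval from limma, with dashed lines at a change of 0.5 in either direction. All 14 intervals include 0, and those of Dnmt1, of 1 Tet2 probe and of 1 Tet3 probe cross a dashed line.

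Genes that work with these enzymes were described from lists, with the brightest probe standing for each gene. Over all 19742 genes taken this way 2.22% were called, with a median log2 change of 0.01. Of 10 cofactors of the writers, 0 of 10 were called and the median was 0.02. Their changes ran from -0.29 to 0.29, with 6 positive and 4 negative. Uhrf1, which brings Dnmt1 to half-methylated DNA, changed by -0.29 (adjusted p = 0.248). Zfp57, which keeps methylation at imprinted loci, gave 1 called probe: A_55_P2172201 read 8.96, 9.07, 9.14 and 9.09 in 3M and 8.49, 8.17, 8.57 and 8.24 in 29M, and fell by 0.70 (SE 0.10, adjusted p = 0.0155). All of its old arrays were below all young ones, while the brighter Zfp57 probe changed by 0.01 (adjusted p = 0.976).

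Of 22 genes of the eraser path and base excision repair, 1 was called lower and none higher, with a median of -0.04. Their changes ran from -0.61 to 0.45, with 9 positive and 13 negative. The called gene was Neil3, a glycosylase found in dividing progenitors, whose probe A_52_P251366 read 6.81, 6.91, 6.42 and 7.002 in 3M and 6.19, 6.22, 6.21 and 6.08 in 29M. It fell by 0.61 (SE 0.12, adjusted p = 0.0467), was well above background on 3 of the 4 old arrays, and was no longer called in 7 of 18 alternatives, with adjusted p up to 0.140. Tdg, the glycosylase that removes the oxidation products of the Tet enzymes, changed by -0.19 on its brightest probe (adjusted p = 0.246). Polb, the repair polymerase that fills the gap afterwards, changed by -0.44 (adjusted p = 0.0545), under the fold threshold, and its groups did not overlap. Groups did not overlap for 4 of the 22 genes, all lower in 29M, beside 11.6% of all genes in either direction.

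Neil3 was lower in 29M, and so were some markers of dividing cells. Of 14, 4 were called lower in 29M, namely Ccnb1 (-0.97), Mki67 (-0.80), Cdk1 (-0.71) and Rrm2 (-0.68), and none higher, with a median of -0.27. Of the 14 changes 12 were negative and 2 positive. The mean of the list, centred on each gene's average over the 8 arrays, ran from 0.03 to 0.25 in 3M and from -0.25 to -0.08 in 29M. Among 10 markers of neuroblasts, 1 was called lower on its brightest probe (Igfbpl1), with a median of -0.35, and a dimmer probe of Sox11 was also called lower (-0.58, adjusted p = 0.0376). The part of these cells in the values of Neil3, Uhrf1 and Dnmt1 was not tested.

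No other methyl-CpG reader was called among 10 measured of 11, with a median of -0.05. Of 18 subunits of the repressor complexes that readers recruit, 1 was called lower, with a median of 0.00. It was Chd3, a remodelling ATPase of NuRD, which read 17.51, 17.51, 17.36 and 17.46 in 3M and 16.88, 16.86, 17.00 and 16.94 in 29M. It fell by 0.54 (SE 0.07, adjusted p = 0.0103) with no overlap, and its size stayed under 0.5 in the 2 alternatives that started from the scanner's processed signal.

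Of 16 genes that supply the methyl donor S-adenosylmethionine or recycle its product, 12 had positive and 4 negative changes, with a median of 0.09 and 0 calls. Gnmt, which consumes the donor to methylate glycine, had the largest change of that list at 0.70 (adjusted p = 0.152), with readings of 9.45 to 9.99 in 3M and 10.08 to 11.10 in 29M.

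Imprinted genes and germline genes with methylated promoters in somatic cells, whose expression depends on DNA methylation, were also examined. Of 29 imprinted genes measured of 30, 0 were called on their brightest probe, beside 2.22% of all genes, with a median of -0.02. Their changes on those probes ran from -0.75 to 0.83, with 13 positive and 16 negative. Groups did not overlap for 1 of these genes higher and 2 lower in 29M, beside 11.6% of all genes in either direction. Dimmer probes of 2 imprinted antisense RNAs were called lower: A_55_P2196922 of Kcnq1ot1 (-0.72, adjusted p = 0.0224) and A_51_P418809 of Airn (-0.61, adjusted p = 0.0487). Their brighter probes changed by -0.23 (adjusted p = 0.646) and 0.12 (adjusted p = 0.468). The Airn call was lost in 7 of 18 alternatives. Of 15 germline genes listed for methylated promoters in somatic cells, 0 were called, with a median of 0.01. The brightest probes of 9 of the 15 were well above background on all 8 arrays. The list therefore cannot be taken as silent here, and changes of its dimmer probes are understated. Dazl (-0.40, adjusted p = 0.0526) and Stag3 (-0.43, adjusted p = 0.177) had groups that did not overlap, both with lower readings in 29M, and these were 2 of 15 genes beside 11.6% of all genes whose groups did not overlap in either direction.

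**Figure D4:**
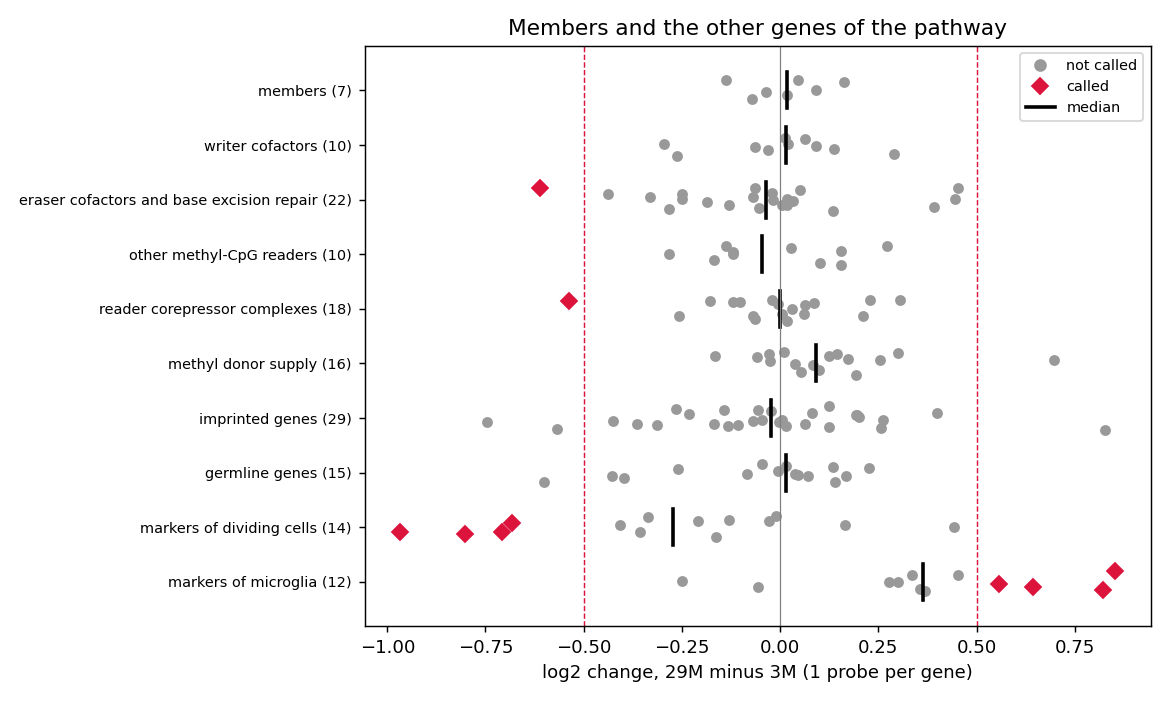
Log2 change (29M minus 3M) of the brightest probe of each gene for the 7 measured members, the lists of related genes and markers of dividing cells and microglia, with called genes as red diamonds, list medians as black bars and dashed lines at 0.5. The members lie between -0.14 and 0.16, with calls in the lists at Neil3, Chd3, 4 markers of dividing cells and 4 of microglia.

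Markers of glia and of other cell types were examined in the same way. Of 12 microglial markers 4 were called higher in 29M (C1qa, Ctss, Trem2 and C1qb), with a median of 0.36. Of the 12 changes 10 were positive and 2 negative. The list mean ran from -0.32 to 0.00 in 3M and from -0.04 to 0.30 in 29M. Among 9 astrocyte markers 1 was called higher (Gfap), with a median of 0.23 and with 6 positive and 3 negative changes. Among 6 markers of oligodendrocyte precursors 1 was called lower (Gpr17). The median of that list was 0.17, with 4 positive and 2 negative changes. None was called on the brightest probe among 9 markers of oligodendrocytes, 7 of endothelium or 7 of choroid plexus. A dimmer probe of the oligodendrocyte marker Ermn was called higher (0.75, adjusted p = 0.0424), while its brighter probe changed by -0.24 (adjusted p = 0.281). The part of these cell types in the readings of Mbd2, Tet3 and the other members was not tested.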

How the data were processed

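For each of the 8 arrays the authors deposited the linear intensities read by the scanner, with no normalization across arrays, extracted per the file headers with Agilent Feature Extraction 10.7.3.1. The headers were followed where the methods of the study name another software version, scanner or array design. All 8 columns of the deposited intensity table of the series equalled a mean local background (tolerance 0.001), in 7 cases that of another sample's array, and were not used.

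Sample titles gave the groups and the replicate numbers. Probes were named by matching their transcript accession to RefSeq (GRCm38.p6), which gave a symbol to 26055 of 39429 probes. The files used here hold median spot intensities. Control spots and outlier spots (127 to 190 of 43020 per array) were removed, and variance stabilising normalization (own implementation in R 4.3.3, trimming quantile 0.9, 7 iterations) was fitted without background subtraction, as an offset of -5.11 to 4.60 scanner units and a scale per array, so changes of dim probes are understated. Spots of a probe were averaged, and limma 3.58.1 (lmFit, eBayes) was run on 39408 probes with at least 3 usable arrays per group. Benjamini-Hochberg adjustment covered all of them. The number of arrays limits the precision.

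All probes of the members were reported. Of the lists, genes with a called probe were named. In a list with none, up to 2 were named, with the largest change among those whose groups did not overlap. The other list genes given (Uhrf1, Tdg, Polb) were chosen after their values were seen, and all of these had negative changes. Members and lists were chosen with earlier results of these data known. The fits were run on simulated data with planted changes larger than that of any member and with no slide effect. That run therefore cannot speak to changes of the members' size or to the slides. Alternatives covered normalization, spot and probe filters, slide, replicate block, variance prior, array weights, thresholds and leaving out each array.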

Additional observations from a re-analysis of the deposited data

How the results depend on the processing

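Under the 18 alternatives no member probe was called, with 1 exception. The count of member probes called lower ran from 0 to 1 with 1 array left out, the 1 being the Tet2 probe A_55_P2051405 without 3M replicate 1, and that called higher was 0 throughout. Directions of small changes turned as follows, and the cause was not tested. Dnmt1 was -0.059 with array weights and ran from -0.36 to 0.31 with 1 array left out, negative without 3M replicate 1 or 29M replicate 1. The Tet2 probe A_55_P2081303 was -0.034 with slide as a block and -0.062 with array weights, and ran from -0.079 to 0.16 with 1 array left out, negative without 29M replicate 3 or 4. The Tet3 probe A_55_P2175260 was -0.0062 with normexp and quantile normalization and -0.11 with array weights, and ran from -0.061 to 0.11 with 1 array left out, negative without replicates 1 or 3 of either group. The Mbd1 probe A_55_P1971124 was 0.0070 from the variance-stabilised processed signal and ran from -0.074 to 0.0016 with 1 array left out, positive without 29M replicate 1. The Mbd1 probe A_55_P2111649 ran from -0.0045 to 0.051, negative without 3M replicate 1. The remaining 9 member probes kept their sign.

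Over all probes, 476 were called higher and 296 lower. The numbers were 784 and 576 with array weights, 306 and 181 at an adjusted p under 0.05, and 797 and 651 without the fold threshold. With 1 array left out they ran from 250 to 792 and from 131 to 594, highest without 3M replicate 1 and lowest without 3M replicate 2. Same replicate numbers did not deviate together (r = -0.261, 0.22, -0.25 and 0.0805), and a replicate block gave 275 higher and 159 lower, with 0 member probes called. In that fit 0 genes of the eraser path and 1 imprinted gene were called.

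The eraser path had 0 called genes with normexp or with slide as a block, 2 with array weights or without the fold threshold, and 0 to 1 with 1 array left out (0 without 3M replicate 2 or 29M replicates 1, 2 or 4). The repressor complexes had 0 called genes under both settings from the processed signal. Imprinted genes had 1 with array weights and 0 to 2 with 1 array left out, and germline genes 1 without the fold threshold. The median of other readers was 0.0012 from the variance-stabilised processed signal. Within slides, medians moved to -0.044 (slide 1) and 0.072 (slide 2) for writer cofactors, 0.026 (slide 1) and -0.14 (slide 3) for other readers, 0.043 (slide 1) and -0.098 (slide 3) for imprinted genes and -0.20 (slide 1) for germline genes. With 4 arrays a group, Dnmt1 and 1 probe each of Tet2 and Tet3 have intervals that hold changes of 0.5. The interval of the dim Tet3 probe A_51_P199339 is narrow near the floor, where changes are understated.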
